A study of Mus musculus with 12 samples.

Results

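Haematopoietic stem cells (HSCs) lacking *Bst2* were compared with wild-type (WT) HSCs after both had been exposed to interferon-γ (IFN-γ). HSCs are the rare bone marrow cells from which all blood lineages arise. *Bst2* encodes tetherin, a membrane protein that interferons induce and that holds enveloped virus particles at the cell surface. IFN-γ signals through JAK kinases and switches on guanylate-binding proteins, immunoproteasome subunits and the MHC genes of antigen presentation. In bone marrow it is also known to push resting HSCs towards division and differentiation.

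The tested libraries were 3 from *Bst2* knockout (KO) mice given 100 µg recombinant mouse IFN-γ for 24 h, and they were set against 3 from WT mice treated likewise. A further 3 KO and 3 WT libraries from naive mice shared the same model and gave the genotype difference without cytokine. All mice were on the C57BL/6 background, and the animals' age and sex and the part of *Bst2* that was removed are not given in the labels. HSCs came from leg, pelvis and hip marrow through a gate for lineage-negative, c-Kit+ CD150+ cells without CD48 and CD34, with 5000 to 11000 cells from each mouse. Libraries were made with a stranded total RNA kit. No label ties a library to a mouse, so p-values here measure the spread between libraries, which may be technical. A gene was tested when its deposited normalized count, called a unit here, reached at least 100 in 3 or more of the 12 libraries. This took in 10816 of 24946 genes (43.4%).

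Library titles carry codes of 3 series, of unstated meaning. KO IFN-γ 1 and WT IFN-γ 1 and 2 were in series FL-06, KO IFN-γ 2 and WT IFN-γ 3 in R-09, and KO IFN-γ 3 in R-07, which held no WT library. The 4 R-09 libraries stood apart from the other 8 on the first principal component (61.4% of the variance), and 2859 tested genes differed more than 4-fold between them. The model therefore carried the series as a term, and differences are also given within FL-06 and within R-09. After IFN-γ, FL-06 set 1 KO library against 2 WT libraries, and R-09 set 1 against 1. WT IFN-γ 1 and 2 were closely alike, with a median difference of 0.088 on the log2 scale (3760 genes of at least 1000 units). Between WT naive 1 and 2 it was 0.274 (3199 genes). Whether WT IFN-γ 1 and 2 are independent mice is not given in the labels. Estimated depth, a rough figure, was 12.5, 9.52 and 18.6 M reads in KO IFN-γ 1 to 3, against 52.1, 45.4 and 8.76 M reads in WT IFN-γ 1 to 3. The KO library in FL-06 was thus shallower than both WT libraries beside it, with 12395 genes above 0 against 14380 and 14640.

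HSC markers were present in every treated library. *Kit*, the stem cell factor receptor, read 8774, 8360 and 9331 units in KO IFN-γ and 8462, 9175 and 5902 in WT IFN-γ. *Mecom* and *Hlf*, transcription factors of HSCs, lay between 504 and 2979 units in the 6 treated libraries. *Cd34*, whose protein the gate excludes, was present as RNA at 558, 3500 and 821 units in KO and 774, 724 and 3331 in WT. Of the 21 mature T and NK cell genes in the table, 5, *Cd3e* among them, were listed at 0 in all 6 libraries, and 4 were above 0 in all 6. The list summed to between 411 and 3962 units in KO and between 432 and 4219 in WT. The upper ends were the R-09 libraries, where *Nkg7* alone read 3569 units in KO and 3732 in WT. Monocyte, macrophage and dendritic cell markers were present, and summed to between 4267 and 18990 units in KO and between 4599 and 25470 in WT. The upper ends were again the R-09 libraries, where *Lyz2* read 12561 units in KO and 14658 in WT. Of the 35 genes, 21 were above 0 in all 6 libraries, and only 1, *Siglech*, was listed at 0 throughout. Neutrophil markers were present, and their 32 genes summed to 11820, 124000 and 13220 units in KO IFN-γ 1 to 3, against 14690, 15580 and 141800 in WT IFN-γ 1 to 3. The high sum in each genotype was its R-09 library, and within each series the KO library was the lower.

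*Bst2* itself separated the genotypes. It read 24.8, 18.8 and 0 units in KO IFN-γ 1 to 3, against 547, 606 and 1514 in WT IFN-γ 1 to 3. Every KO library lay below every WT library, and the highest WT value was in R-09. The means were 14.5 ± 12.9 units in KO and 889 ± 542 in WT (SD, n = 3 each), which put KO at 1.63% of WT. This share was 1.06% without KO IFN-γ 1, 2.52% without WT IFN-γ 3 and 4.30% within FL-06. An exact two-sided permutation test gave p = 0.1, the smallest that the 20 arrangements of 3 against 3 allow. With the naive libraries included (6 against 6), the exact permutation p was 0.002165. In the model across all genes the log2 fold change was -6.51 (SE 1.39, limma adjusted p = 1).

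**Figure D1:**
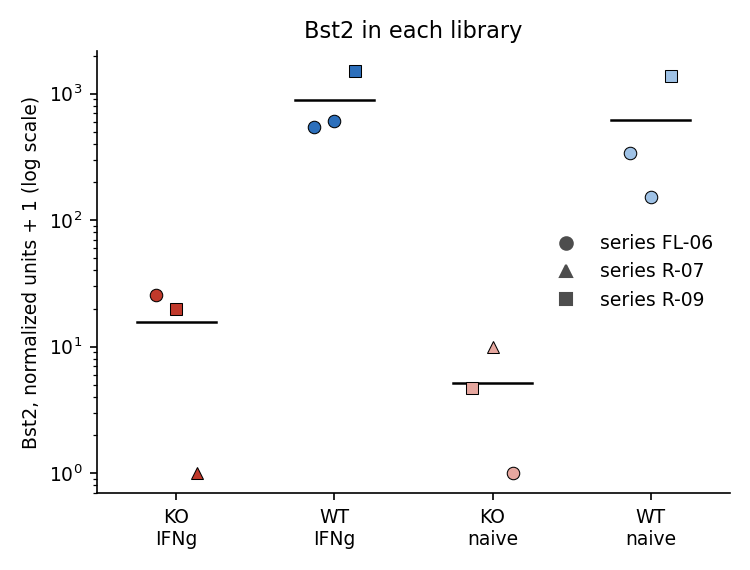
*Bst2* in each of the 12 libraries, as normalized units plus 1 on a log axis. Points are libraries, shapes are code series and bars are means of the plotted values. All KO libraries, at 0 to 24.8 units, sit below all WT libraries.

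The *Bst2* promoter is shown because it carries the sequence through which interferon-activated factors are known to act, the interferon-stimulated response element. The window runs from 250 bases before to 50 bases after the transcription start (RefSeq, GRCm38.p6, chr8:71537423-71537722, minus strand). Capitals mark 2 overlapping matches to its core, GAAA and GAAA with any 2 bases between them, searched on both strands:
Bst2: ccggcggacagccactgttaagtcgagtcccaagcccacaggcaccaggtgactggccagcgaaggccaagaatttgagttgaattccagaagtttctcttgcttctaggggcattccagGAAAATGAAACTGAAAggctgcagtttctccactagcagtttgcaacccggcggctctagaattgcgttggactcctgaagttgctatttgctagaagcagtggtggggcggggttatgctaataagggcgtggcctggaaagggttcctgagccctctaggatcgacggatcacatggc
The core was found in 3.44% of all 32851 mouse promoter windows of this length and in 3.17% of those of tested genes. It was found in 18 of the 44 windows (40.9%) of the type I interferon-stimulated genes tested, of which 35 had a RefSeq promoter.

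No gene, the targeted one included, was called between KO and WT HSCs after IFN-γ. None passed an adjusted p of 0.05 (0%, limma with Benjamini-Hochberg adjustment over 10816 genes), and the smallest adjusted p was 1. At an unadjusted p below 0.05 there were 226 genes (2.09%), 89 higher in KO (0.823%) and 137 lower (1.27%), where chance alone would give 541. That count was 539 without WT naive 2, 104 without WT IFN-γ 1 and 107 without WT IFN-γ 2. WT naive 2, outside the compared groups and of an estimated 0.495 M reads, stood apart on the second principal component (19.3% of the variance). It lay at -172.8, and the other libraries between -18.84 and 34.96. The spread in the model takes in this library, so the test is sensitive to it. Without it no gene passed either, and the smallest limma adjusted p was 0.9435. Without WT IFN-γ 3 a single gene passed the adjusted threshold (*Amd2*), and without all R-09 libraries, a setting chosen after the data were seen, 2 did (*Amd2* and the RNA subunit gene *Rmrp*). In 295 genes (2.73%) the 3 KO libraries did not overlap the 3 WT libraries, 156 with KO higher (1.44%) and 139 with KO lower (1.29%). A log2 fold change above 0 was seen in 44.4% of genes, around a median of -0.04.

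How far a difference could have gone unseen in this model can be read from the intervals, whose spread also takes in WT naive 2. For 5590 genes (51.7%) the 95% interval of the KO to WT ratio lay within a 2-fold change either way. For the others the interval reached beyond a 2-fold change in at least 1 direction. The median half-width was 0.75 on the log2 scale, a factor of 1.68. In naive HSCs the same genotype contrast also passed 0 genes (702 at an unadjusted p below 0.05, 6.49%), with 57.9% of genes above 0. None passed the test of whether the genotype difference changed with treatment either, where 367 genes (3.39%) had an unadjusted p below 0.05 and the smallest limma adjusted p was 0.9331.

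**Figure D2:**
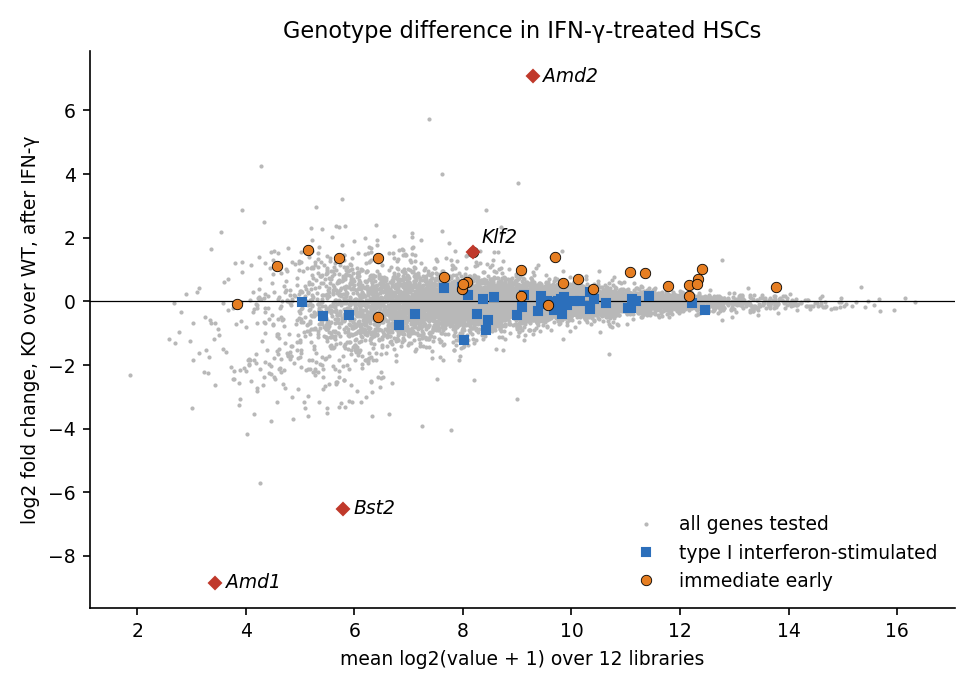
Log2 fold change of KO over WT after IFN-γ (vertical axis) against the mean log2(value + 1) over 12 libraries (horizontal axis) for the 10816 tested genes. Most immediate early genes (orange) lie above 0, type I interferon-stimulated genes (blue) lie on both sides of 0, and *Bst2*, *Amd1*, *Amd2* and *Klf2* are labelled.

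Since nothing passed, genes are described here by the smallest unadjusted p among those whose log2 values average 7 or more and whose 3 KO and 3 WT treated libraries do not overlap. None of them is a call. *Klf2*, a transcription factor that holds lymphocytes and endothelium in a resting state, read 501, 526 and 503 units in KO IFN-γ 1 to 3, against 104, 152 and 221 in WT IFN-γ 1 to 3. The KO libraries were nearly equal across the 3 series, and each was more than 2-fold above the highest WT library. The means were 510 ± 13.8 in KO and 159 ± 58.6 in WT (SD, n = 3 each). The fitted ratio was 2.92 (95% interval 1.42 to 6.01, log2 fold change 1.55, SE 0.47, limma adjusted p = 1). In naive HSCs *Klf2* overlapped between genotypes, at 350, 353 and 241 units in KO and 150, 249 and 739 in WT, and the treatment-dependent difference did not pass (log2 1.70, SE 0.62, limma adjusted p = 0.9331).

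*Borcs8*, a subunit of the complex that positions lysosomes, read 1613, 803 and 878 units in KO IFN-γ and 790, 795 and 518 in WT IFN-γ. Only KO IFN-γ 1 stood well clear of WT, while the KO library in R-09 exceeded the nearest WT library by a few units. Its fitted ratio was 1.94 (95% interval 1.34 to 2.81). *Col16a1*, a collagen chain, read 1500, 832 and 903 units in KO against 753, 614 and 601 in WT. *Ltbp3*, which binds latent TGF-β, read 925, 988 and 948 units in KO against 639, 832 and 511 in WT. Both had KO values above WT within each of the series that hold both genotypes.

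*Adgre5*, which encodes the adhesion receptor CD97, read 972, 1220 and 1042 units in KO against 704, 757 and 843 in WT. Its fitted ratio was 1.38 (95% interval 1.06 to 1.80). *Arf3*, a small GTPase of the Golgi, had a ratio of 1.42, and *Rps29*, a ribosomal protein, of 1.31. The remaining genes higher in KO by this rule were *Ttc9c*, *Ier5*, *Ctbs*, *Gm20605* and *Amd2*. Among the genes named, *Borcs8*, *Col16a1*, *Arf3*, *Adgre5*, *Ltbp3*, *Ctbs* and *Gm20605* on the higher side and *Dnaja1*, *Ctss*, *Oxct1*, *Rnf144a* and *2810006K23Rik* on the lower side overlap other genes in the RefSeq annotation, and with the handling of strand not given, their reads may be shared.

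Genes lower in KO by the same rule follow. *Mycn*, a MYC family transcription factor of stem and progenitor cells, read 2809, 3670 and 2573 units in KO IFN-γ 1 to 3, against 3953, 3938 and 4558 in WT IFN-γ 1 to 3. The means were 3017 ± 578 in KO and 4150 ± 354 in WT (SD, n = 3 each), and the fitted ratio was 0.704 (95% interval 0.562 to 0.882). *Tmod3*, which caps actin filaments, read 1549, 2129 and 2052 units in KO against 2389, 2538 and 2446 in WT, with the KO library in FL-06 the lowest. *Cyp51*, an enzyme of sterol synthesis, read 387, 503 and 632 units in KO against 687, 661 and 952 in WT, a difference of -0.80 within FL-06 and -0.92 within R-09 on the log2 scale.

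*Dnaja1*, a co-chaperone of HSP70, read 5496, 3826 and 4063 units in KO against 7086, 6297 and 5601 in WT. *Chmp2a*, a subunit of the ESCRT-III membrane-cutting machinery, read 1721, 1993 and 1257 units in KO against 2501, 2352 and 2601 in WT. *Ctss*, the protease cathepsin S that trims the MHC class II invariant chain, read 41.2, 201 and 93.1 units in KO against 227, 204 and 389 in WT. The nearest KO and WT libraries of *Ctss* were a few units apart, and its 95% interval, 0.137 to 1.03, included no change. The other genes lower in KO by this rule were *Rcl1*, *Zfp821*, *Oxct1*, *Rnf144a*, *Cyb5r4* and *2810006K23Rik*. *Cyb5r4*, *Ctss* and *2810006K23Rik* filled the list with unadjusted limma p-values above 0.05 (0.0564, 0.0565 and 0.0639).

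The genes with the greatest fitted differences in either direction were near-identical copies of each other. *Amd1* and *Amd2* both encode S-adenosylmethionine decarboxylase, an enzyme of polyamine synthesis. *Amd1* was listed at 0, 0 and 731 units in KO IFN-γ 1 to 3 and at 2622, 2977 and 429 in WT IFN-γ 1 to 3. *Amd2* showed the mirror image, with 2841, 1635 and 2828 units in KO and 0, 0 and 1498 in WT. Their sum was 2841, 1635 and 3558 units in KO and 2622, 2977 and 1927 in WT, and on that sum the groups overlapped. Both genes are therefore reported as uncertain.

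Immediate early genes are transcribed within minutes of a stimulus, without new protein synthesis, and encode AP-1 and EGR transcription factors and the proteins that end the response. Of the 27 tested, 24 were higher in KO after IFN-γ, with a median log2 difference of 0.60 (26 of 27 and 0.80 without the R-09 libraries), whereas 44.4% of all genes were above 0 with a median of -0.04. None passed the threshold. An unadjusted p below 0.05 was reached by 5, all higher in KO (background 0.823%), and in 4 the KO libraries lay wholly above the WT libraries (background 1.44%). The 5 were *Klf2*, *Zfp36*, *Ier5*, *Fos* and *Dusp1*, of which *Dusp1* was chosen after its values were seen. The 4 were *Klf2*, *Ier5*, *Maff* and *Csrnp1*, with *Csrnp1* likewise chosen after its values were seen.

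The promoters of *Fos* and *Dusp1* are shown because both genes answer to cyclic AMP and calcium signals through the half-site TGACGT, which capitals mark wherever it was found on either strand. The windows are from RefSeq, GRCm38.p6, at chr12:85473640-85473939 (plus strand) and chr17:26508423-26508722 (minus strand), with 1 match in *Fos* and 3 in *Dusp1*, of which a pair overlaps as a palindrome:
Fos: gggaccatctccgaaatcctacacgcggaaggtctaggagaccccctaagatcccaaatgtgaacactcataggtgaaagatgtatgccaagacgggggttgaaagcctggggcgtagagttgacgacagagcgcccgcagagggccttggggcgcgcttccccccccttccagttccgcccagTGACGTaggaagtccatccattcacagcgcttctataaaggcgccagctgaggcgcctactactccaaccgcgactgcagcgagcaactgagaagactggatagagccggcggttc
Dusp1: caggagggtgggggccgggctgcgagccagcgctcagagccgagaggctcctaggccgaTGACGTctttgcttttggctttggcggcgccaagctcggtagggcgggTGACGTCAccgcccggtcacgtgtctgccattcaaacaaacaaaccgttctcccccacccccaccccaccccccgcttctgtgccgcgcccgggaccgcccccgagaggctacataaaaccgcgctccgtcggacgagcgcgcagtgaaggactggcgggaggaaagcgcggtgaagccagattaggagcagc
The half-site was found in 7.51% of all promoter windows, in 12% of those of tested genes and in 6 of the 28 windows (21.4%) of tested immediate early genes, of which 23 had a RefSeq promoter. These letters were not in the windows of *Klf2*, *Zfp36*, *Ier5* and *Csrnp1*, and *Maff* held them in 1 of its 3 windows.

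Among the AP-1 subunits, *Fos* read 3830, 27029 and 4965 units in KO IFN-γ 1 to 3, against 1663, 1545 and 14594 in WT IFN-γ 1 to 3. The groups overlap only through the high level of both R-09 libraries, and within each series the KO library was the higher, by 1.26 in FL-06 and 0.89 in R-09 on the log2 scale. The fitted ratio was 2.02 (95% interval 1.09 to 3.76). *Jun*, its partner, read 13078, 25138 and 11446 units in KO against 8236, 8136 and 20600 in WT, with a ratio of 1.36 (95% interval 0.985 to 1.87). *Maff*, a small MAF protein, read 243, 96.8 and 199 units in KO against 57.6, 85.9 and 45.8 in WT. Its 95% interval was wide, 0.524 to 12.6.

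The other members named showed the same order within series. *Zfp36*, which destabilizes AU-rich mRNAs, read 1668, 9621 and 1801 units in KO IFN-γ and 715, 743 and 5386 in WT IFN-γ, a ratio of 1.91 (95% interval 1.23 to 2.95). *Dusp1*, a phosphatase that switches off MAP kinases, read 2210, 15884 and 1564 units in KO and 756, 849 and 11332 in WT, a ratio of 1.85 (95% interval 1.05 to 3.25). In both genes the R-09 libraries were several times above the rest of their genotype. *Ier5* read 1075, 1132 and 1071 units in KO and 859, 697 and 640 in WT, without overlap. *Egr1*, a zinc finger factor that keeps HSCs at rest in mice, read 3658, 14567 and 4590 units in KO and 2103, 2208 and 7863 in WT, and its interval reached just below no change (ratio 1.63, 95% interval 0.969 to 2.74).

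The order of the genotypes, by the list median, was the same within both series after IFN-γ and opposite between series in naive HSCs. After treatment the median immediate early difference in FL-06 was 0.78 and in R-09 0.70, with 24 of 27 genes above 0 in each and 22 in both (all genes 21.6%). In naive HSCs all 27 were above 0 in FL-06 (median 1.08) and none in R-09 (median -0.76). *Fos*, for example, read 4973 units in the FL-06 KO naive library against 1458 and 1454 in the WT naive libraries beside it, but 17244 in KO against 33587 in WT in R-09. Each R-09 value is a difference between single libraries, and the naive FL-06 value includes WT naive 2, a library of an estimated 0.495 M reads. The treated FL-06 value sets 1 KO library against WT IFN-γ 1 and 2, which were closely alike. Over all 12 libraries the median was 0.60 after IFN-γ and 0.35 in naive HSCs, and the median of the treatment-dependent differences was 0.12.

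**Figure D3:**
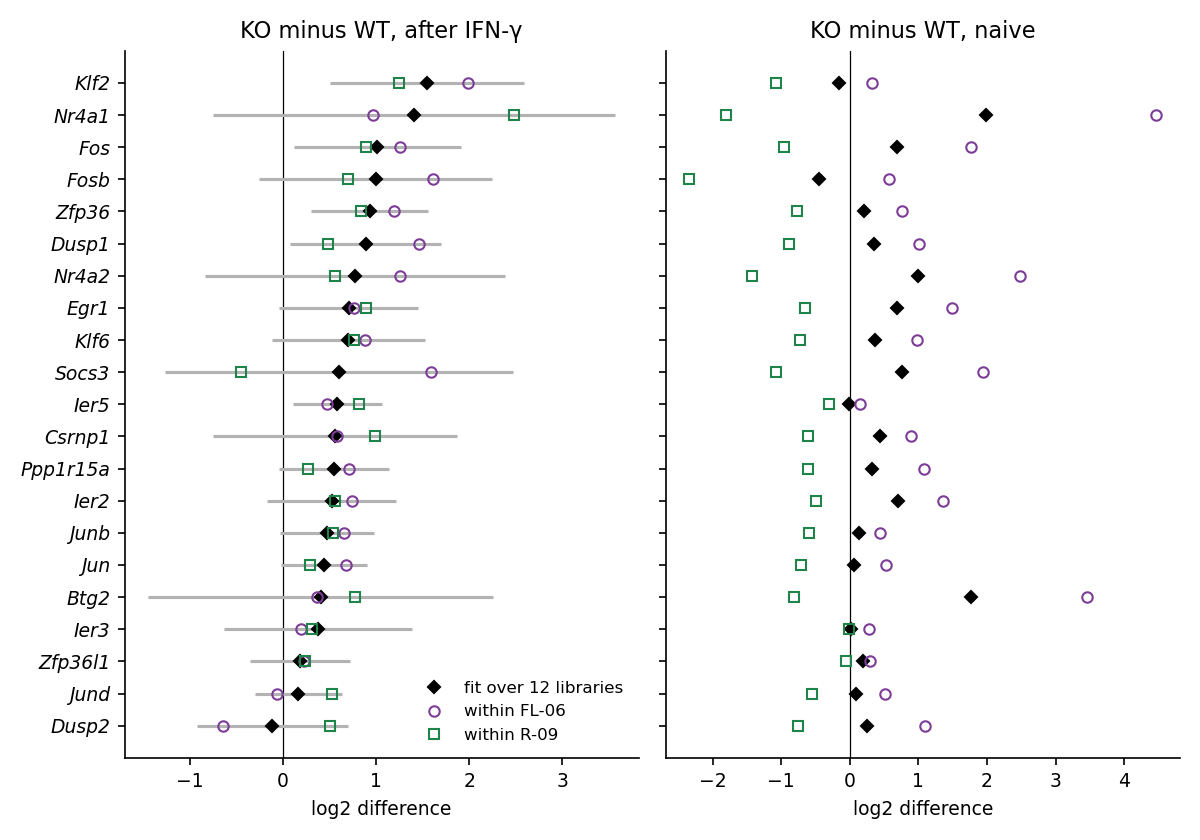
Log2 difference of KO minus WT for the 21 immediate early genes whose log2 values average 7 or more, after IFN-γ (left) and in naive HSCs (right). Diamonds are the fit over 12 libraries with the 95% interval at left, circles the difference within FL-06 and squares within R-09. After IFN-γ nearly all symbols lie right of 0, and in naive HSCs the 2 series lie on opposite sides.

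The summed level of the 29 immediate early genes was 46550, 164200 and 49730 units in KO IFN-γ 1 to 3, against 28160, 27540 and 107200 in WT IFN-γ 1 to 3. Neutrophil markers, given above, were lower in KO in both series, while in FL-06 estimated depth was also lower in KO. Nuclear and structured non-coding RNAs, whose share depends on how a total RNA library is made, were above 0 in 7 of 7 tested (median 0.41, background 44.4%). Within FL-06 7 of 7 were above 0 (median 0.70), and within R-09 3 of 7 (median 0). *Malat1* read 135261, 5981 and 64662 units in KO and 88369, 85941 and 5062 in WT. The R-09 libraries held little of these RNAs, whose sum was 9737 units in KO IFN-γ 2 and 8619 in WT IFN-γ 3. In the other treated libraries the sum lay between 224000 and 338600. *Rpph1*, for example, read 5.70 units in KO IFN-γ 2 and 0 in WT IFN-γ 3, so the R-09 median says little. Whether depth or RNA make-up bears on the immediate early difference was not tested.

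The interferon programme itself, which the cytokine induces, did not differ between genotypes in a way this test could call. Of 35 tested IFN-γ response genes, 10 were above 0, with a median log2 difference of -0.14 and none at an unadjusted p below 0.05. *Gbp3*, a guanylate-binding protein, read 2038, 889 and 1461 units in KO IFN-γ and 3471, 3621 and 940 in WT IFN-γ, a log2 difference of -0.80 within FL-06 and -0.08 within R-09. *Psme1*, a proteasome activator subunit, read 13715, 4810 and 6289 units in KO and 17052, 14343 and 5934 in WT. *Nlrc5*, the transactivator of MHC class I genes, read 2468, 513 and 2715 units in KO and 2759, 2566 and 215 in WT, and its positive fold change (log2 0.46, SE 0.28) came from R-09, with -0.11 within FL-06 and 1.25 within R-09.

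Antigen presentation genes gave no call either. MHC class I presentation had 6 of 21 tested genes above 0 (median -0.09), and for 17 of the 21 the 95% interval stayed within a 2-fold change. *H2-D1* and *H2-K1*, classical class I heavy chains, had ratios of 0.896 (95% interval 0.772 to 1.04) and 0.918 (0.795 to 1.06). *H2-K1* read 20430, 52966 and 26436 units in KO and 22208, 23203 and 54932 in WT, so the series differed far more than the genotypes. MHC class II presentation had 4 of 14 above 0 (median -0.24), and here the intervals were wide, with 3 of 14 within 2-fold. *H2-Ab1*, a class II chain, read 1107, 4298 and 1912 units in KO and 1913, 1761 and 5858 in WT (ratio 0.696, 95% interval 0.478 to 1.01). *Cd74*, the invariant chain, read 3560, 8293 and 4210 units in KO and 4224, 4731 and 10261 in WT (ratio 0.770, 95% interval 0.475 to 1.25).

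Of 45 type I interferon-stimulated genes tested, *Bst2* among them, 17 were above 0 and the median was -0.05. The median was -0.29 within FL-06 and 0.08 within R-09. Unadjusted p-values below 0.05 were reached by *Bst2* and *Xaf1* (background for lower genes 1.27%). *Xaf1*, a pro-apoptotic interferon target, read 79.3, 411 and 328 units in KO and 319, 310 and 720 in WT (ratio 0.433, 95% interval 0.201 to 0.932). *Irf7*, *Isg15* and *Sp100* had no overlap, with KO lower (background 1.29%), and unadjusted limma p-values of 0.299, 0.802 and 0.503. These were singled out after their values were seen.

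**Figure D4:**
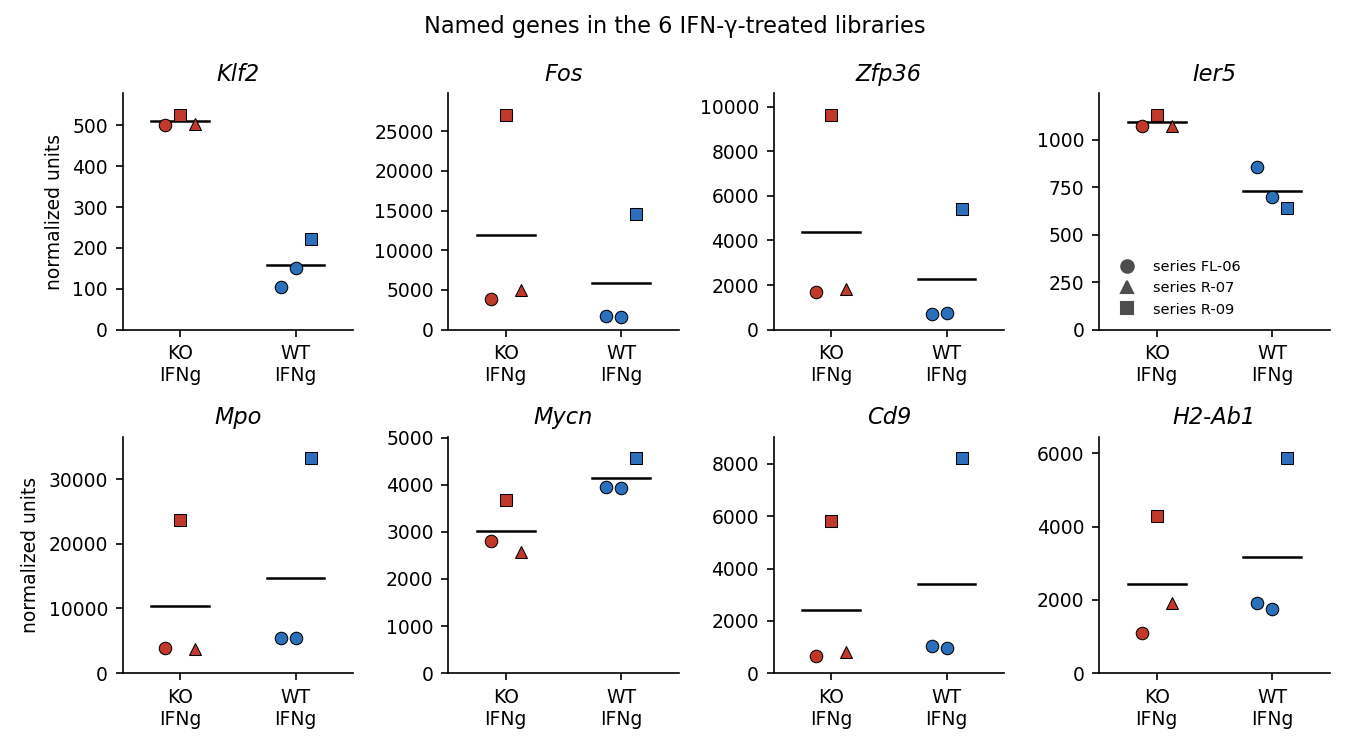
Normalized units of 8 genes in the 6 treated libraries, KO left and WT right. Points are libraries, shapes are code series and bars are group means. *Klf2*, *Ier5* and *Mycn* do not overlap, while *Fos*, *Zfp36*, *Mpo* and *Cd9* overlap because R-09 (squares) lies apart. *H2-Ab1* overlaps outside R-09 too, as KO IFN-γ 3 lies above WT IFN-γ 2. All the overlapping genes show the genotype order within FL-06 and within R-09.

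Of 37 tested genes that define HSCs, 18 were above 0 (48.6%), none at an unadjusted p below 0.05, and the median was -0.01, which turned to 0.01 under quantile normalization and median centring. Within FL-06 14 of the 37 were above 0 (median -0.12), and within R-09 27 were (median 0.24). *Mecom* read 2124, 779 and 1778 units in KO and 1627, 1755 and 504 in WT (ratio 1.30, 95% interval 0.961 to 1.76). *Kit* had a ratio of 1.14 (95% interval 0.930 to 1.39) and *Lmo2*, a bridging factor of blood stem cells, of 0.942 (0.791 to 1.12). Quiescence genes and CDK inhibitors were above 0 in 18 of 27 (median 0.22), but the median within FL-06 was -0.07 and that within R-09 0.45. *Klf2*, *Egr1* and several other immediate early genes sit on that list too.

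Adhesion and homing genes, with which tetherin has been tied to HSC lodging in the niche, were above 0 in 15 of 38 (median -0.12), with 10 (median -0.17) within FL-06 and 23 (median 0.07) within R-09. *Cd9*, a tetraspanin of HSCs and megakaryocytes, read 663, 5827 and 803 units in KO and 1033, 969 and 8207 in WT. It was lower in KO within both series, with log2 differences of -0.59 in FL-06 and -0.49 in R-09 (ratio 0.690, 95% interval 0.529 to 0.900). *Rap1b*, a GTPase that activates integrins, read 4511, 14360 and 4027 units in KO and 5176, 5235 and 17369 in WT (ratio 0.808, 95% interval 0.657 to 0.993). These were the 2 of the list at an unadjusted p below 0.05, both lower in KO (background 1.27%).

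Megakaryocyte genes, expressed in a platelet-primed share of HSCs, were above 0 in 5 of 28 (median -0.19, all genes -0.04). In FL-06 the median was -0.27, and in R-09 it was -0.04. *Zfpm1*, the GATA1 cofactor FOG1, read 12751, 1288 and 11681 units in KO and 15786, 15161 and 2299 in WT (ratio 0.664, 95% interval 0.497 to 0.887). *Zfpm1*, *Cd9* and *Pf4*, the platelet chemokine, were the 3 at an unadjusted p below 0.05, all lower in KO (background 1.27%). *Pf4*, singled out after its values were seen, read 1278, 9578 and 1100 units in KO and 1969, 2177 and 9702 in WT.

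*Mpo*, the myeloperoxidase of early granulocytic cells, read 3833, 23700 and 3746 units in KO and 5424, 5504 and 33177 in WT. Its log2 difference was -0.51 within FL-06 and -0.49 within R-09, and the 95% interval of the ratio was narrow (0.717, 0.607 to 0.846, limma adjusted p = 1). In naive HSCs the log2 fold change was -0.38 (SE 0.11). Neutrophil markers as a list were above 0 in 7 of 24 (median -0.25), myeloid priming genes in 5 of 22 (median -0.25), and monocyte, macrophage and dendritic cell markers, *Bst2* among them, in 2 of 17 (median -0.43). By series, the myeloid priming median was 0.02 (11 of 22 above 0) in FL-06 but -0.25 (8 of 22) in R-09, that of neutrophil markers -0.37 (8 of 24) and -0.14 (6 of 24), and that of the monocyte list -0.36 (5 of 17) and -0.86 (3 of 17), in the same order of series. In bulk RNA fewer cells of a type and less RNA per cell cannot be told apart. Not all myeloid receptors followed, since *Csf3r*, the G-CSF receptor, read 541, 1005 and 503 units in KO and 440, 413 and 546 in WT.

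Cell cycle genes leaned to the lower side without a call, more within R-09 than within FL-06. G2/M genes were above 0 in 9 of 41 (median -0.14), and for 36 of the 41 the 95% interval lay within a 2-fold change. *Aurkb*, a mitotic kinase, read 513, 2034 and 744 units in KO and 766, 832 and 2504 in WT (ratio 0.673, 95% interval 0.440 to 1.03). *Nusap1*, a spindle protein, read 627, 1003 and 577 units in KO and 1002, 998 and 1208 in WT (ratio 0.743, 95% interval 0.544 to 1.01). G1/S genes were above 0 in 14 of 42 (median -0.05), with *Rrm2*, a subunit of ribonucleotide reductase, at a ratio of 0.80 (95% interval 0.610 to 1.05). Within FL-06 the median was -0.05 for G2/M genes (15 of 41 above 0) and -0.02 for G1/S genes (19 of 42). Within R-09, which set 1 library against 1, the medians were -0.27 (11 of 41) and -0.14 (10 of 42). Over all genes the medians were -0.03 in FL-06 and -0.04 in R-09.

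Housekeeping metabolism lists had narrow intervals and small shifts. Oxidative phosphorylation genes were above 0 in 11 of 39 (median -0.12) and glycolysis genes in 4 of 23 (median -0.13). *Uqcrc1*, a complex III core protein, read 3968, 12847 and 4727 units in KO and 5402, 5738 and 16505 in WT (ratio 0.772, 95% interval 0.656 to 0.908). *Pgam1*, a glycolytic mutase, had a ratio of 0.764 (0.605 to 0.964), whereas *Hk1*, the first enzyme of glycolysis, ran the other way at 1.2 (1.02 to 1.40). Cytosolic ribosomal protein genes were above 0 in 13 of 51 (median -0.10), with 50 of 51 intervals within a 2-fold change. Their median was -0.05 within FL-06 (21 of 51 above 0) and -0.17 within R-09 (8 of 51), where 1 library was set against 1. *Rpsa* had a ratio of 0.820 (95% interval 0.687 to 0.978), and *Rps29* was the exception on the higher side without overlap.

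**Figure D5:**
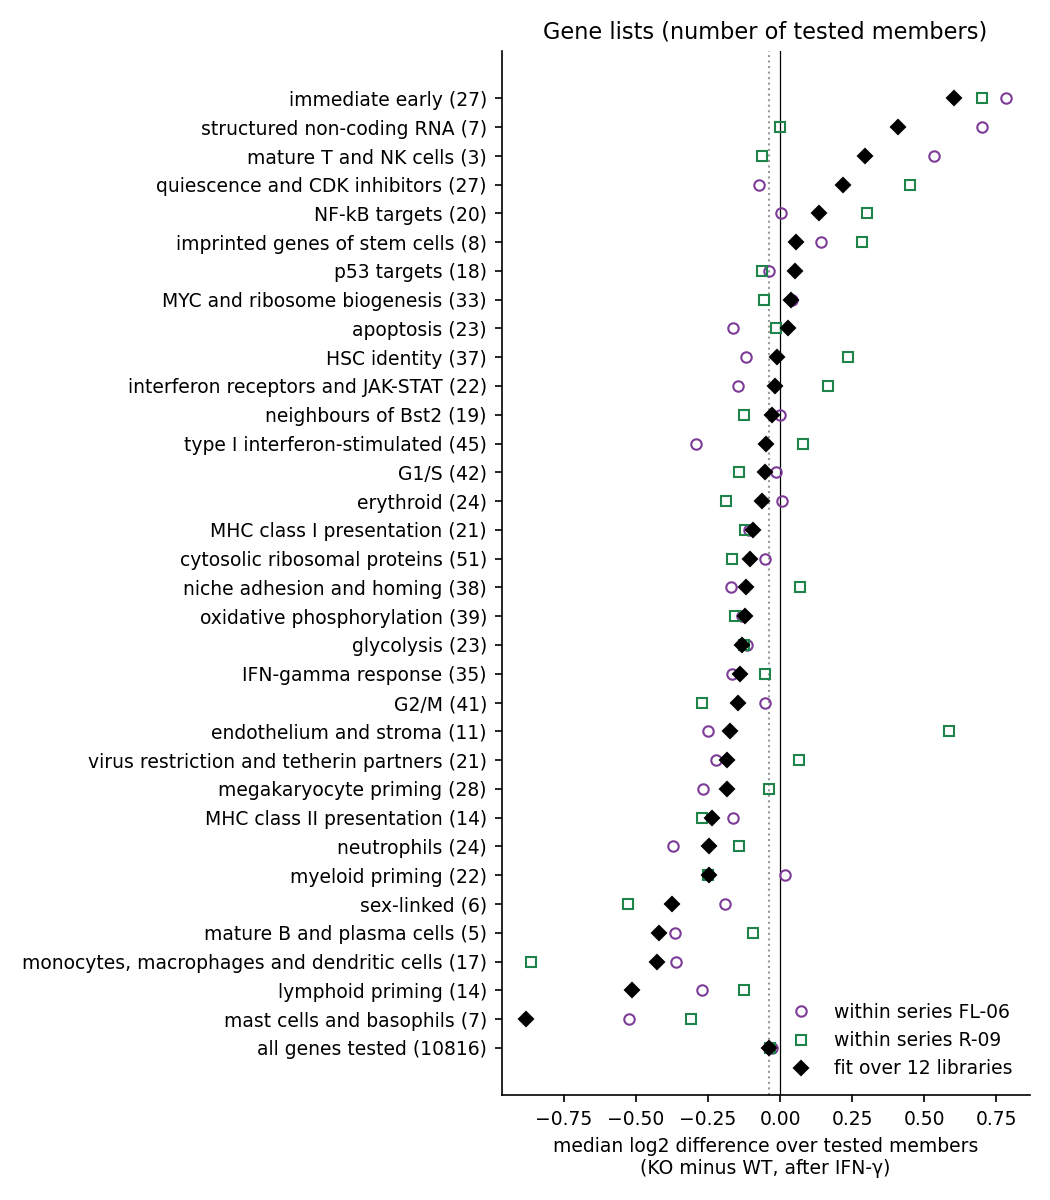
Median log2 difference, KO minus WT after IFN-γ, over the tested members of each gene list, with the number of members in brackets. Diamonds are the fit over 12 libraries, circles FL-06 and squares R-09, and the dotted line is the median of all 10816 genes (-0.04). Immediate early genes (0.60) lie farthest to the right.

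The chromosome around the targeted gene was examined last. Of 19 tested genes named as neighbours of *Bst2*, 9 were above 0 (median -0.03, or 0.04 after quantile normalization) and none reached an unadjusted p below 0.05. *Abhd8* and *Gtpbp3*, 0.07 and 0.035 Mb away (RefSeq, GRCm38.p6), had ratios of 0.579 (95% interval 0.292 to 1.15) and 0.677 (0.405 to 1.13). The log2 difference of *Abhd8* was -1.81 within FL-06 but 0.06 within R-09, and its fold change lay between -1.39 and -0.03 over the settings tried, and was -0.03 without KO IFN-γ 1. Within 2 Mb of *Bst2*, a distance chosen after the data were seen, 85 other genes were tested, 44 of them above 0. *Borcs8*, *Klf2*, *Nwd1* and *Upf1* had an unadjusted p below 0.05, all higher in KO (background 0.823%), at 1.39, 0.782, 1.11 and 1.18 Mb. *Borcs8* and *Klf2* are thus both among the 12 genes named as higher and both near the targeted gene. *Nwd1* read 2158, 311 and 1689 units in KO IFN-γ and 1507, 1702 and 131 in WT IFN-γ, and *Upf1*, a helicase of nonsense-mediated decay, read 6685, 2290 and 6116 in KO and 5971, 5443 and 1724 in WT.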

How the data were processed

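Total RNA of 12 HSC libraries was sequenced, 3 for each of 4 groups. The authors deposited a never-negative signal per gene, that is, normalized counts. For the authors' pipeline the submitters' processing notes name STAR and DESeq but neither version nor role. Genome build, annotation and use of strand: not given in the sources used here. Values were not whole reads (2.32% to 4.60% whole multiples of a library's step, tolerance 0.01), so no count test was run. Depth was estimated as total over step and is rough, as a step was not shown to be 1 read. Of 24972 rows, 26 with date names were left out.

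Values entered as log2(value + 1), which can understate changes of low genes but lets a single listed 0 weigh heavily. Naive *Uty*, at 0 in WT naive 2, had a fitted ratio of 9.59 between means of 301 units in KO and 111 in WT. One limma-trend model (limma 3.58.1, R 4.3.3) held 4 group means and the code series (residual df 6, prior df 5.02), with Benjamini-Hochberg adjustment over 10816 genes at a threshold of 0.05. KO IFN-γ 3 entered through KO naive 2, its only companion in R-07, with a weight of 0.167. The weights of KO IFN-γ 1 and 2 were 0.452 and 0.381, and those of WT IFN-γ 1 to 3 were -0.31, -0.31 and -0.381. Naive libraries also entered the treated contrast, with weights from -0.167 (KO naive 2) to 0.119 (KO naive 3). The model was tested on simulated data with known changes. The simulated spread was capped and held no outlying library, so it does not show how the model performs at the spread of these data. Named genes were *Bst2*, the 12 genes in each direction described in the text, the 2 members of each list with the highest mean and the 2 with the smallest p, gate genes, sex-linked genes and neighbours of *Bst2*. Members and the 33 lists were chosen with earlier results of these data known, and lists were described by counts and medians only.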

Additional observations from a re-analysis of the deposited data

How the results depend on the processing

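Over 24 alternative settings the count of genes past the threshold stayed at 0, except for 1 with only the 6 treated libraries (*Amd1*, lower in KO, adjusted p = 0.01186) and 2 without the R-09 libraries (*Amd2* and *Rmrp*, higher in KO), a setting chosen after the data were seen. Leaving out 1 library at a time gave 0 to 1 genes, the 1 being *Amd2* without WT IFN-γ 3. With the replicate number as a block it was 0, both beside the series term and in its place. Same-numbered KO and WT treated libraries correlated at 0.727, -0.880 and -0.681 in their deviations from the group means. Both negative values set an R-09 library against another series, and KO IFN-γ 2 and WT IFN-γ 3, both R-09, correlated at 0.908. The signs thus followed the series, so these values cannot show whether the numbers pair libraries. Genes at an unadjusted p below 0.05 ranged from 8 (block in place of series) to 10 without the series term and up to 1263 with 6 libraries, so this count depends on the model, as it also did with library weights (743), without the filter (507), without WT naive 2 (539), WT IFN-γ 1 (104) or 2 (107). *Bst2* in KO was 4.30% of WT within FL-06 and 1.24% within R-09, and 1.06% to 2.52% without 1 library. Its log2 fold change was -8.48 to -5.24 over all settings. Across 12 settings other than leaving out 1 library, 4 of 809 fold changes of named genes turned sign. These were *H2-K1* at 0.0051 without the series term and with the replicate block in its place, and *Nlrc5* at -0.044 and *Kit* at -0.025 without R-09. *Kit* also lay between -0.0010 and 0.33 when 1 library was left out. The immediate early median lay between 0.48 and 0.80, with 23 to 26 of 27 genes above 0. Medians of 13 of 33 lists turned sign in at least 1 setting, among them the IFN-γ response (-0.42 to 0.07) and type I interferon-stimulated genes (-0.27 to 0.02). The cause of these changes was not tested. *Klf2* lay between 1.10 and 1.85 and *Mycn* between -0.66 and -0.40. No WT library was in R-07, so KO IFN-γ 3 cannot be told apart from its series, and estimated depth of 8.76 to 18.6 M reads in 4 of the 6 treated libraries limits what can be said of low genes.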

Other observations

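Transcripts of both sexes were present in every treated library, although the labels give no sex. *Xist*, made from the inactive X chromosome of females, read 14819, 232 and 15945 units in KO IFN-γ 1 to 3 and 10662, 11533 and 264 in WT IFN-γ 1 to 3, with the low value of each genotype in R-09. *Ddx3y*, a helicase gene on the Y chromosome, read 420, 428 and 383 units in KO and 513, 447 and 608 in WT. *Kdm5d*, a Y-linked histone demethylase, read 149, 150 and 130 units in KO and 267, 243 and 219 in WT. Both Y-linked genes were lower in all 3 KO libraries (background 1.29%), with unadjusted limma p-values of 0.355 and 0.182, while *Eif2s3y* and *Uty* overlapped between genotypes.

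NF-κB targets were above 0 in 13 of 20 tested (median 0.13), p53 targets in 11 of 18 (0.05), apoptosis genes in 13 of 23 (0.03), erythroid genes in 9 of 24 (-0.06) and receptors and kinases of interferon signalling in 10 of 22 (-0.02, or 0.01 after quantile normalization). Within both series the medians of p53 targets (FL-06 -0.04, R-09 -0.06) and apoptosis genes (-0.16 and -0.02) were below 0, against the fit. In the same order, the medians were 0.002 and 0.30 for NF-κB targets, 0.005 and -0.19 for erythroid genes, and -0.15 and 0.16 for the receptors and kinases. None of these lists had a member at an unadjusted p below 0.05. KO libraries lay wholly below WT libraries in 3 of the 23 apoptosis genes and 1 of the 20 NF-κB targets (background 1.29%). Lymphoid priming genes had the median farthest below 0 among the lists with at least 10 tested members, at -0.51 over 14 genes, and -0.06 after quantile normalization. The median was nearer 0 within each series, at -0.27 (4 of 14 above 0) in FL-06 and -0.13 (6 of 14) in R-09. *Cd27*, a receptor of lymphoid-competent progenitors, ran against these lower medians, with 784, 2164 and 838 units in KO and 573, 509 and 2027 in WT. *Neat1*, a nuclear non-coding RNA, read 3339, 864 and 3236 units in KO and 2116, 1996 and 892 in WT. *Atp5o* (ratio 0.755, 95% interval 0.606 to 0.941) and *Rps14* (0.750, 0.584 to 0.964) were among the metabolism and ribosomal genes with unadjusted limma p-values of 0.0169 and 0.0286, both lower in KO.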
